A study of Mus musculus with 5 samples.

Results

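The lysosomal genes described here are 45 mouse genes chosen by name: 10 cathepsins, 13 other hydrolases and their activator, 8 membrane and cholesterol-export proteins, 11 subunits of the vacuolar proton pump (V-ATPase) and 3 transcription factors of the MiT/TFE family. Of these, 43 were measured among 22180 genes. Glb1 shares its probe set with Tmppe and Atp6v0c had no probe set paired with its symbol, so neither was analysed here. For each gene the probe set with the highest mean over all arrays was used, and levels are deposited log2 values. Levels are compared between arrays within a gene and not between genes.

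The cells were Ter119+ bone marrow cells, that is, cells bearing an antigen of erythroblasts and red cells, taken after magnetic depletion of cells with the leukocyte antigen CD45. One array was made from each of 3 Polg mutant samples (Polgtm1Lrsn mt/mt, an allele of the mitochondrial DNA polymerase) and 2 WT samples (Polgtm1Lrsn wt/wt), all on a C57BL/6 background. The series' design text says the mice had been bled, and its title speaks of aged mutator mice, but neither bleeding schedule nor ages are given in the sources used here. Every sample, WT included, came from a cross of parents with floxed Atg7 alleles and a father carrying 1 Epo-cre allele, and the labels do not say which offspring inherited the Cre. Nor do they say whether each array had its own animal. The p-values therefore cover the variation among these 5 arrays, part or all of which may be technical.

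Lysosomes digest proteins, lipids, glycans and nucleic acids delivered by endocytosis and autophagy. The V-ATPase acidifies their lumen, which lets cathepsins and other acid hydrolases work, and the LAMP proteins line their membrane. Maturing erythroblasts and reticulocytes rely on autophagy and lysosomes to clear mitochondria and other organelles. TFEB, TFE3 and MITF bind E-box sequences in the promoters of many lysosomal genes.

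The lysosomal genes did not move one way in Polg mutant cells. In 9 of the 43 genes all Polg mutant arrays read higher than both WT arrays (20.9%), against 8.36% of all genes tested. In 6 all Polg mutant arrays read lower than both WT arrays (14%), against 9.73% of all genes tested. Leaving out 1 array makes a lack of overlap easier for any gene. Without Polg mutant replicate 3, 20 of the 43 genes (46.5%) were higher and 6 (14%) lower, against 12.4% and 12.7% of all genes. Without WT replicate 1 the counts were 17 (39.5%) and 9 (20.9%), against 22.2% and 28.1% of all genes. Without WT replicate 2 they were 12 (27.9%) and 12 (27.9%), against 23% and 20.8%. The level of a gene bears on these shares too, as do ties, since a value shared by both groups makes them overlap. Of the 43 genes 24 had 5 distinct values, and of all 22180 genes 7112 had. A filter of a log2 level above 6 on at least 2 arrays was passed by 40 of the lysosomal genes, of which 22.5% were higher and 15% lower, and by 8340 of all genes, of which 16.7% were higher and 20.3% lower. The median difference, Polg mutant minus WT, was 0.10 on the log2 scale over the 43 genes and 0.00 over all genes tested.

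With limma, 0 of 22180 genes (0%) were higher and 0 (0%) lower at an adjusted p under 0.05, so no lysosomal gene passed. Fits without WT replicate 1 or 2 take the spread of the single WT array from the Polg mutant arrays. Ctsf, Mcoln1 and Scarb2 each had identical values on all Polg mutant arrays (SD 0.0000), so their small adjusted p-values there follow from ties. Lysosomal genes that passed in those fits are not counted here. They include Atp6v0a1, which has 5 distinct values and an SD of 0.0276 on the Polg mutant arrays. Among the 43, the smallest adjusted p was 0.224, for Acp5. At an unadjusted limma p under 0.05, 6 lysosomal genes (14%) were higher, against 4.18% of all genes tested, and 5 (11.6%) were lower, against 5.33%. Above the level filter the shares were 15% and 12.5% of the lysosomal genes, against 9.47% and 12.5% of all genes. Of these 11 genes, Acp5, Ctsb and Atp6ap1 kept that p under 0.05 in all 5 fits without 1 array. The count of 6 higher genes was 0 without Polg mutant replicate 2, 3 without Polg mutant replicate 1 and 2 without WT replicate 2. With 3 and 2 arrays there are 10 splits, and an exact two-sided permutation test of a single gene cannot go below p = 0.1.

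**Figure D1:**
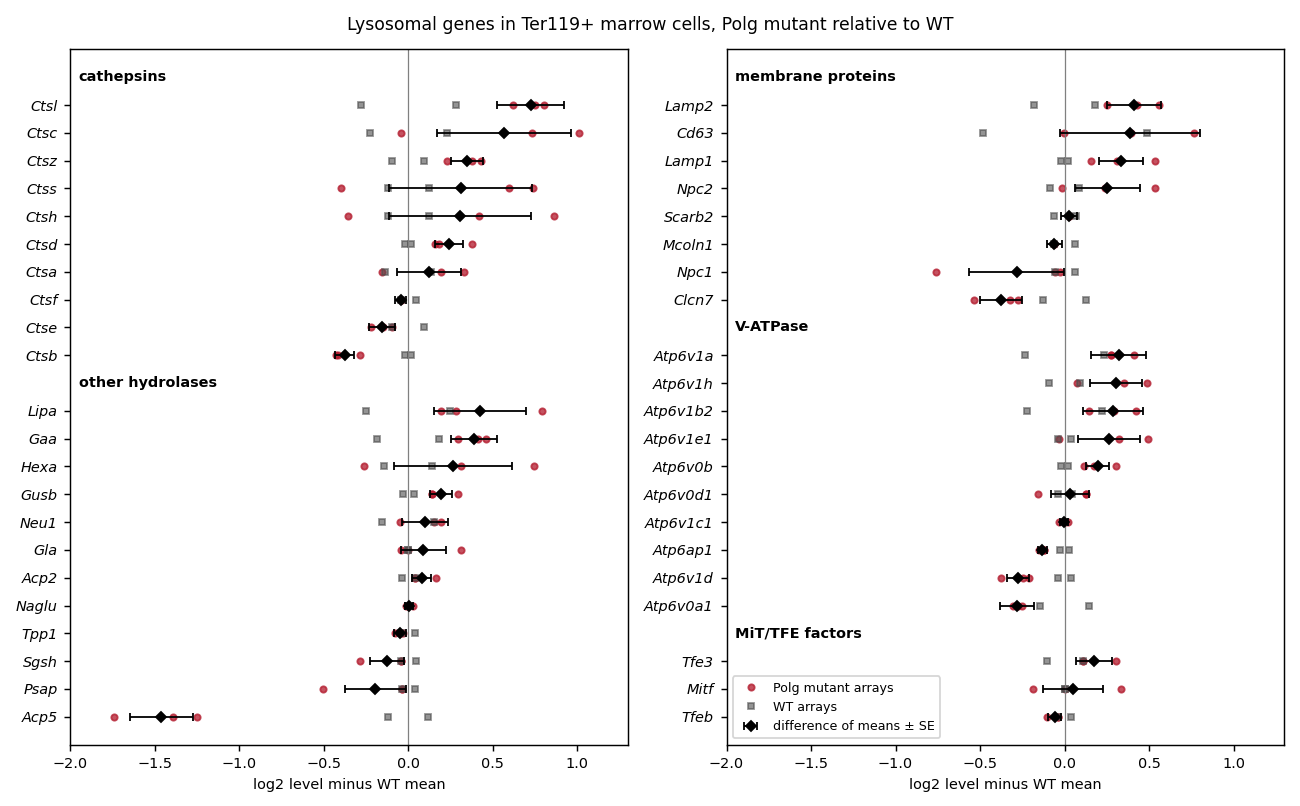
Log2 level of each measured lysosomal gene minus its WT mean, by class. Red circles are the 3 Polg mutant arrays, grey squares the 2 WT arrays, and black diamonds the difference of means with the standard error of limma's moderated test; Acp5 stands lowest, at -1.46, and Ctsl highest, at 0.72.

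The E-box letters that MiT/TFE factors recognise were looked up in the promoters of these genes. RefSeq promoter windows (GRCm38.p6, 250 bases before to 50 after the start) were found for 38 of the 45 genes. Ctsb, Ctse, Ctsh, Npc1, Atp6v1b2, Atp6v1c1 and Atp6v1h had none in the table. The hexamer CACGTG, which reads the same on both strands, stood in a window of 15 of the 38 genes (39.5%) and of 8.09% of the 27025 genes in the whole table. The heptamer TCACGTG, searched on both strands and containing the hexamer, stood in 13 of the 38 and in 4.29% of all genes. By direction, CACGTG was present for 6 of the 9 genes that were higher on every Polg mutant array, for 1 of the 5 lower genes with a window, and for 7 of the 22 others with a window. A match describes letters and was not shown to be a bound site. The stretches around the matches are shown for genes from both directions, 5′ to 3′ on the gene's strand, with CACGTG in capitals.
Lamp1 (higher, chr8:13159085-13159160, plus strand): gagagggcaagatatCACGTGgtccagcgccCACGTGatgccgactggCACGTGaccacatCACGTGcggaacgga
Atp6v0b (higher, chr4:117887330-117887380, minus strand): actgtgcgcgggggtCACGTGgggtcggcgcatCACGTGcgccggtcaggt
Ctsd (higher, chr7:142387905-142387940, minus strand): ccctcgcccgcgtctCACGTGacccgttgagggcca
Gaa (higher, chr11:119267808-119267843, plus strand): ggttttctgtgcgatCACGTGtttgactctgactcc
Atp6v1a (higher, chr16:44139370-44139405, minus strand): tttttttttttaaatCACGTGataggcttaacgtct
Clcn7 (lower, chr17:25133361-25133390, plus strand): gcctccgtcgtcagtCACGTGggcaccgat
The 4 matches of Lamp1 begin between 61 and 15 bases before its start, and the 2 of Atp6v0b begin 36 and 18 bases before it. The match shown for Ctsd begins 98 bases before its start, that of Gaa 140, that of Atp6v1a 131 and that of Clcn7 15. Ctsd has 2 matches in its window and Clcn7 also has 2, of which 1 each is shown.

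Among the cathepsins, the lysosomal proteases, Ctsl, Ctsz and Ctsd were higher on every Polg mutant array. Ctsb was lower on every one, while the other 6 overlapped. The shares were 30% higher and 10% lower. All genes tested gave 8.36% and 9.73%, and those above the level filter 16.7% and 20.3%. The median difference of the 10 was 0.27. It was 0.06 without Polg mutant replicate 1.

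Ctsl encodes cathepsin L, a cysteine endopeptidase. It read 7.72, 7.66 and 7.53 on the Polg mutant arrays and 6.63 and 7.19 on the WT arrays. The WT arrays lay farther apart than the Polg mutant arrays, and the gap between the groups was 0.34. The difference was 0.72 ± 0.20 (SE), a 1.65-fold higher level in Polg mutant cells (limma unadjusted p = 0.0245, adjusted p = 0.400), and it was 0.443 without WT replicate 1 and up to 1.003 with another array left out. The unadjusted limma p stayed under 0.05 in 2 of the 5 fits without 1 array. Ctsz, the carboxypeptidase cathepsin Z, read 9.60, 9.54 and 9.40 on the Polg mutant arrays and 9.26 and 9.07 on the WT arrays. Its difference was 0.35 ± 0.10 (SE, limma unadjusted p = 0.0247). Ctsd, the main lysosomal aspartic protease, read 11.11, 10.91 and 10.89 on the Polg mutant arrays and 10.74 and 10.71 on the WT arrays, a difference of 0.24 ± 0.08 (SE, limma unadjusted p = 0.0468). All 3 genes were higher by less than a doubling.

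Ctsb encodes cathepsin B, a cysteine protease with both endopeptidase and carboxypeptidase activity. It read 12.12, 12.26 and 12.13 on the Polg mutant arrays and 12.57 and 12.53 on the WT arrays. Both groups were tight, with SDs of 0.080 (n = 3) and 0.024 (n = 2), and stood 0.27 apart. The difference was -0.38 ± 0.06 (SE, limma unadjusted p = 0.00345, adjusted p = 0.238), and it stayed between -0.42 and -0.35 with any 1 array left out, with an unadjusted limma p under 0.05 in all 5 fits. Ctse, an aspartic protease expressed in red cells, read 13.22, 13.35 and 13.29 on the Polg mutant arrays and 13.54 and 13.35 on the WT arrays. Polg mutant replicate 2 and WT replicate 2 had the same value of Ctse, so the groups touched, and its difference of -0.16 ± 0.08 (SE) had a limma unadjusted p of 0.120 and was -0.061 without WT replicate 1. Ctsf, a further cysteine protease, read 8.65 on every array except WT replicate 2, at 8.74.

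**Figure D2:**
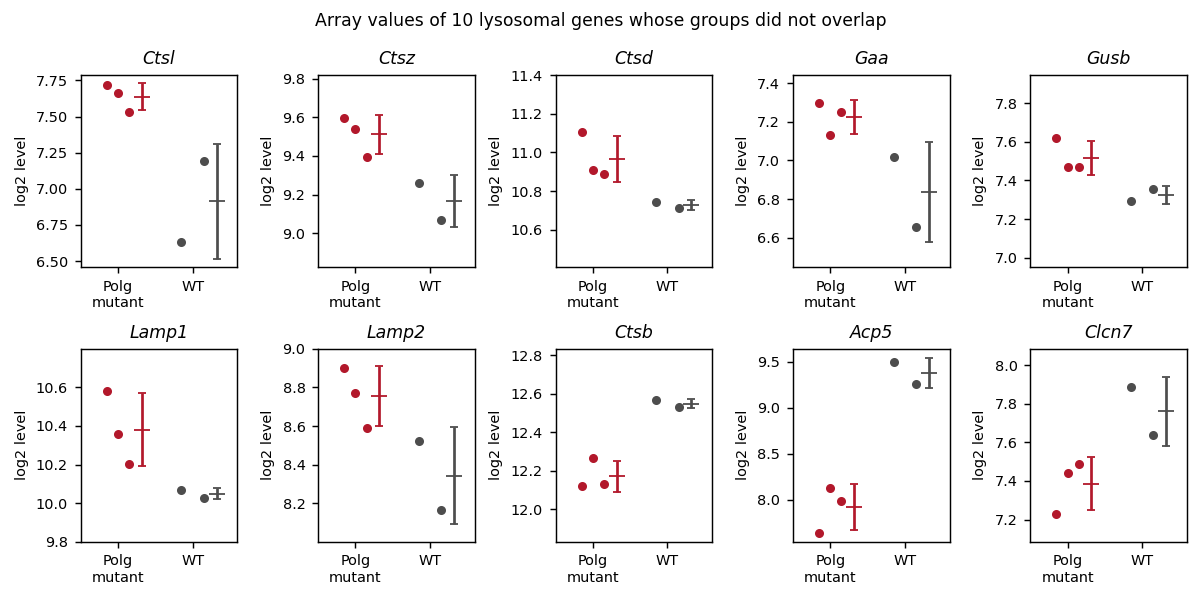
Log2 levels of 10 lysosomal genes whose groups did not overlap, each dot 1 array, with the group mean and SD beside it (3 Polg mutant arrays in red, 2 WT arrays in grey; each panel has its own axis, which does not start at 0). Acp5 has the widest gap between groups, 1.13, and Lamp2 the narrowest of the 10, 0.070.

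For Ctsc, Ctsh, Ctss and Ctsa, the range of the Polg mutant arrays was wider than the difference between the group means. Ctsc, which activates granule serine proteases in leukocytes, read 8.62, 8.34 and 7.57 on the Polg mutant arrays and 7.84 and 7.38 on the WT arrays. Ctss, cathepsin S, which works in antigen presentation, read 7.54, 7.40 and 6.40 on the Polg mutant arrays and 6.92 and 6.68 on the WT arrays. Polg mutant replicate 3, the array whose omission raised the count of higher genes to 20, was the lowest array for Ctss and the other Polg mutant arrays the highest. Ctsh, an aminopeptidase, spanned 6.64 to 7.87 on the Polg mutant arrays and 6.88 to 7.12 on the WT arrays. Ctsa, the carboxypeptidase that protects beta-galactosidase and neuraminidase, spanned 8.513 to 8.997 on the Polg mutant arrays and 8.532 to 8.804 on the WT arrays. Their limma unadjusted p-values ran from 0.231 to 0.558.

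Ptprc, the gene of CD45, the antigen used for depletion, varied in a similar array order. It read 7.67, 7.40 and 6.06 on the Polg mutant arrays and 7.13 and 6.43 on the WT arrays. Ctsa, Ctsh, Ctss and Hexa put the 5 arrays in exactly the order of Ptprc, 4 of the 24 lysosomal genes with 5 distinct values (16.7%), against 148 of the 7112 such genes in all (2.08%) and 2.68% of those also above the level filter. A gene with ties could not match. This ordering was looked for after the values had been seen. The mean level of 16 neutrophil markers was 8.31, 8.82 and 7.15 on the Polg mutant arrays and 7.90 and 7.08 on the WT arrays. All 16 overlapped between the groups. The mean of 18 macrophage markers, including Adgre1 and Csf1r, was 5.32 to 5.43 on the Polg mutant arrays and 5.34 on both WT arrays. Siglec1, a marker of marrow macrophages, read 4.88 on every array, and Adgre1 read 5.10 to 5.93 on the Polg mutant arrays and 5.22 to 5.41 on the WT arrays. Among the macrophage markers only Csf1r, Slc40a1 and Itgam passed the level filter. Of the 18, Slc40a1, the iron exporter ferroportin, which erythroid cells also express, read 8.81, 9.01 and 9.01 on the Polg mutant arrays and 9.53 and 9.19 on the WT arrays, and the other 17 overlapped. Its difference was -0.42 ± 0.14 (SE, limma unadjusted p = 0.0438). The share of macrophage markers lower on every Polg mutant array was 5.56%, against 9.73% of all genes tested. The part of leukocyte RNA in the levels of the lysosomal genes was not tested. In bulk samples, fewer cells of a type and less RNA per cell cannot be told apart.

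**Figure D3:**
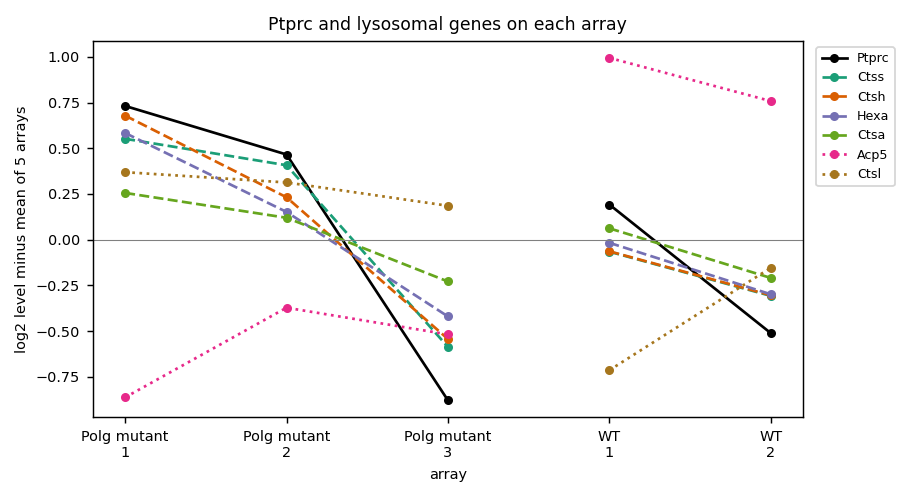
Log2 level minus the mean of the 5 arrays (vertical axis) on each array, for Ptprc (solid black), the lysosomal genes in its array order (dashed), and Acp5 and Ctsl (dotted). The dashed genes fall on Polg mutant replicate 3 as Ptprc does, whose level there was 6.06 before subtraction, while Acp5 and Ctsl separate the groups instead.

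Among the 12 other hydrolases measured, Acp5 was lower and Gaa and Gusb were higher on every Polg mutant array, and the median difference was 0.085. The shares were 16.7% higher and 8.33% lower. All genes tested gave 8.36% and 9.73%, and those above the level filter 16.7% and 20.3%. Acp5, tartrate-resistant acid phosphatase, is best known from osteoclasts and some macrophages. It read 7.64, 8.13 and 7.99 on the Polg mutant arrays and 9.50 and 9.26 on the WT arrays. The lowest WT array was 1.13 above the highest Polg mutant array, the widest gap among the 43 genes. The difference was -1.46 ± 0.19 (SE), a 2.75-fold higher level in WT (limma unadjusted p = 0.00191, adjusted p = 0.224). It was -1.58 to -1.32 with any 1 array left out, with an unadjusted limma p under 0.05 in all 5 fits, and it passed the threshold when limma was fitted to genes with 5 distinct values alone (adjusted p = 0.028). In that fit 73 genes of the whole series passed as higher and 41 as lower. The adjusted limma p of Acp5 was 0.0776 with the level filter, 0.127 after quantile normalization and 0.147 after median centring. The mean level of 5 osteoclast markers was 4.938 to 5.002 on the Polg mutant arrays and 4.986 to 5.066 on the WT arrays. Of the 5, Calcr was lower on every Polg mutant array, at 4.21 on all 3 against 4.26 and 4.67 on the WT arrays, and the other 4 overlapped. The groups of Calcr were 0.049 apart. The share of the 5 markers lower on every Polg mutant array was 20%, against 9.73% of all genes tested. Neither Calcr nor Ocstamp, Dcstamp, Oscar and Nfatc1, the other osteoclast markers, passed the level filter. The part of osteoclast RNA in the level of Acp5 was not tested.

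Gaa, acid alpha-glucosidase, which breaks down lysosomal glycogen, read 7.30, 7.13 and 7.25 on the Polg mutant arrays and 7.02 and 6.65 on the WT arrays, a difference of 0.39 ± 0.14 (SE, limma unadjusted p = 0.0494). It was 0.207 without WT replicate 2, and 1 of the 5 fits without 1 array kept that p under 0.05. Gusb, beta-glucuronidase, read 7.62, 7.47 and 7.47 on the Polg mutant arrays and 7.29 and 7.36 on the WT arrays, a difference of 0.19 ± 0.06 (SE, limma unadjusted p = 0.0439). Both differences are small beside that of Acp5. Lipa, the acid lipase that frees cholesterol from its esters, read 8.38, 7.87 and 7.78 on the Polg mutant arrays and 7.83 and 7.34 on the WT arrays, so that the groups overlapped. Its difference of 0.42 was 0.175 without WT replicate 2. Hexa, a subunit of beta-hexosaminidase, read 8.34, 7.91 and 7.34 on the Polg mutant arrays and 7.74 and 7.46 on the WT arrays. Psap, whose product is cut into the saposins that activate lipid hydrolases, read 11.23, 11.23 and 10.77 on the Polg mutant arrays and 11.31 and 11.23 on the WT arrays, and its difference of -0.19 was -0.04 without Polg mutant replicate 3. The other 6, namely Acp2, Gla, Naglu, Neu1, Tpp1 and Sgsh, differed by -0.12 to 0.10, with limma unadjusted p-values of 0.232 to 0.852. Naglu, which degrades heparan sulfate, did not pass the level filter.

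Among the 8 membrane and cholesterol-export proteins, Lamp1 and Lamp2 were higher and Clcn7 lower on every Polg mutant array, with a median difference of 0.14. The shares were 25% higher and 12.5% lower. All genes tested gave 8.36% and 9.73%, and those above the level filter 16.7% and 20.3%. Lamp1 and Lamp2 encode the main structural glycoproteins of the lysosomal membrane, and LAMP2 also serves autophagy. Lamp1 read 10.58, 10.36 and 10.20 on the Polg mutant arrays and 10.07 and 10.03 on the WT arrays. Lamp2 read 8.90, 8.77 and 8.59 on the Polg mutant arrays and 8.52 and 8.16 on the WT arrays. The difference was 0.33 ± 0.13 (SE) for Lamp1 and 0.41 ± 0.16 (SE) for Lamp2. The unadjusted limma p was 0.0651 for Lamp1 and 0.0648 for Lamp2, and after quantile normalization 0.019 and 0.0178. With the level filter that p was 0.0564 and 0.0548, and after median centring 0.0598 and 0.0543. With trend it was 0.073 for both, and among genes with 5 distinct values 0.0655 and 0.0463. Without WT replicate 2 the difference of Lamp2 was 0.233. On both genes Polg mutant replicate 3 came nearest to the WT arrays.

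Clcn7, the chloride-proton exchanger of lysosomes, read 7.23, 7.44 and 7.49 on the Polg mutant arrays and 7.89 and 7.64 on the WT arrays, a difference of -0.38 ± 0.13 (SE, limma unadjusted p = 0.0441). It was -0.25 without WT replicate 1, and 0 of the 5 fits without 1 array kept that p under 0.05. Cd63, a tetraspanin of late endosomes, read 7.38, 7.01 and 6.62 on the Polg mutant arrays and 7.10 and 6.13 on the WT arrays, and its WT arrays lay farther apart than the group means. Npc1 and Npc2 pass cholesterol out of the lysosome together. Npc1 read 7.04, 7.01 and 6.31 on the Polg mutant arrays and 7.13 and 7.01 on the WT arrays, and its dimmer second probe set gave a difference of the other sign, 0.14 against -0.28. Npc2 spanned 7.99 to 8.53 on the Polg mutant arrays and 7.91 to 8.09 on the WT arrays. Scarb2, the receptor that carries glucocerebrosidase to lysosomes, read 6.591 on all Polg mutant arrays and 6.502 and 6.630 on the WT arrays. Mcoln1, a calcium channel of lysosomes, read 9.45 on every array except WT replicate 2, at 9.58.

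The V-ATPase genes split in both directions. Atp6v0b and Atp6v1a were higher on every Polg mutant array, Atp6v0a1, Atp6v1d and Atp6ap1 were lower on every one, and 5 overlapped. The shares were 20% higher and 30% lower. All genes tested gave 8.36% and 9.73%, and those above the level filter 16.7% and 20.3%. The median difference of the 10 was 0.11. The pump has a membrane sector, V0, that moves protons and a cytosolic sector, V1, that hydrolyses ATP, and each direction held genes of both sectors.

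Of the membrane sector, Atp6v0b, a proteolipid subunit, read 9.69, 9.75 and 9.88 on the Polg mutant arrays and 9.56 and 9.59 on the WT arrays. Its difference was 0.20 ± 0.07 (SE, limma unadjusted p = 0.0485). Atp6v0a1, which forms a proton half-channel, read 10.42, 10.46 and 10.48 on the Polg mutant arrays and 10.88 and 10.59 on the WT arrays. The difference was -0.28 ± 0.10 (SE, limma unadjusted p = 0.0532), and -0.13 without WT replicate 1. Atp6ap1, the accessory subunit Ac45, read 10.46, 10.49 and 10.49 on the Polg mutant arrays and 10.58 and 10.64 on the WT arrays. Its difference of -0.13 ± 0.03 (SE, limma unadjusted p = 0.00831) was small. That p stayed under 0.05 in all 5 fits without 1 array. After quantile normalization the difference was -0.10 (limma unadjusted p = 0.218). Atp6v0d1, a subunit of the central stalk, spanned 10.16 to 10.45 on the Polg mutant arrays and 10.28 to 10.36 on the WT arrays.

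Of the cytosolic sector, Atp6v1d, part of the rotor, read 9.166, 9.003 and 9.132 on the Polg mutant arrays and 9.418 and 9.337 on the WT arrays. Its difference was -0.28 ± 0.07 (SE, limma unadjusted p = 0.0153). Atp6v1a, the catalytic subunit, read 8.003, 7.872 and 7.872 on the Polg mutant arrays and 7.827 and 7.363 on the WT arrays. The groups of Atp6v1a were only 0.045 apart, and its difference of 0.32 ± 0.16 (SE) was 0.088 without WT replicate 2. Atp6v1b2, Atp6v1e1 and Atp6v1h, for an ATP-binding subunit, a peripheral stalk subunit and a regulatory subunit, differed by 0.26 to 0.30 and overlapped between the groups. With 1 array left out, Atp6v1b2 ran from 0.065 without WT replicate 2 to 0.508 without WT replicate 1, and Atp6v1e1 from 0.145 without Polg mutant replicate 1 to 0.408 without Polg mutant replicate 3. The dimmer second probe set of Atp6v1b2 gave a difference of 0.031. Atp6v1c1 differed by -0.0040, with the same value on 3 of the arrays.

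**Figure D4:**
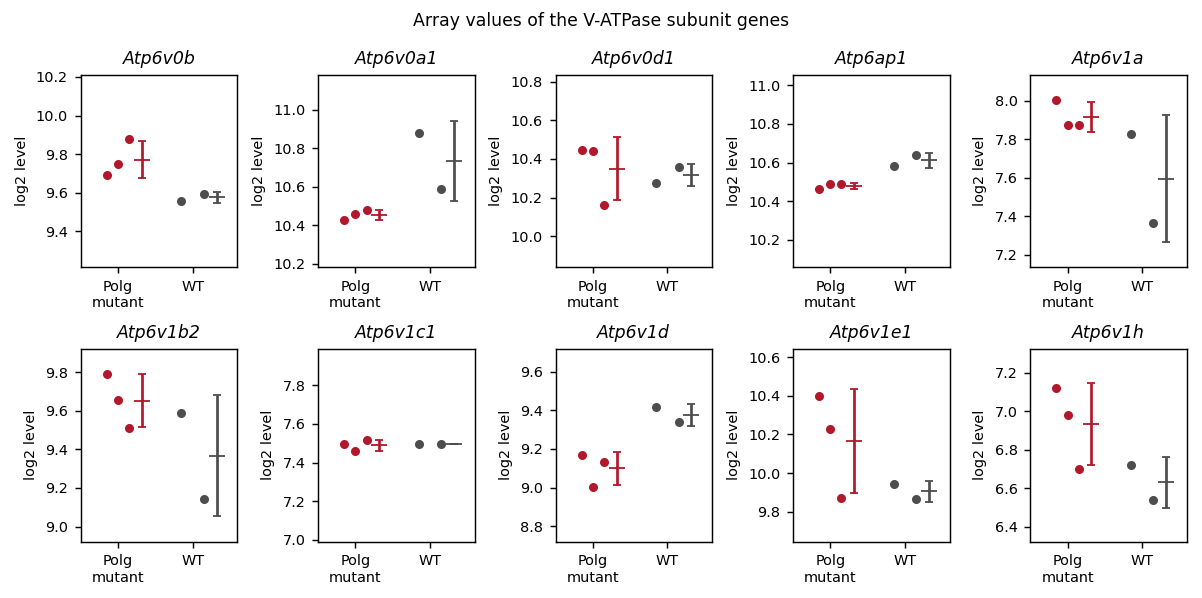
Log2 levels of the 10 measured V-ATPase genes, each dot 1 array, with the group mean and SD beside it (Polg mutant in red, n = 3; WT in grey, n = 2; each panel has its own axis, which does not start at 0). Atp6v0b and Atp6v1a lie higher on every Polg mutant array, and Atp6v0a1, Atp6ap1 and Atp6v1d lower.

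The 3 MiT/TFE factor genes all overlapped between the groups. Tfe3 read 8.53, 8.33 and 8.33 on the Polg mutant arrays and 8.12 and 8.33 on the WT arrays. Tfeb read 5.28, 5.35 and 5.35 on the Polg mutant arrays and 5.42 and 5.35 on the WT arrays, and Mitf 5.25, 4.91 and 4.73 on the Polg mutant arrays against 4.91 on both WT arrays. Neither Tfeb nor Mitf passed the level filter. These factors are regulated largely by their location in the cell, which an expression array does not measure.

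Further lysosomal genes outside the 45 were also found in both directions. Their shares stand beside 8.36% higher and 9.73% lower of all genes tested, and 16.7% and 20.3% of those above the level filter. Of 25 further genes listed with the hydrolases, 5 (20%) were higher and 3 (12%) lower on every Polg mutant array. Lgmn, the asparaginyl endopeptidase that processes cathepsins, read 9.57, 8.66 and 8.73 on the Polg mutant arrays and 6.98 and 7.76 on the WT arrays. This was a difference of 1.62 ± 0.43 (SE), a 3.07-fold higher level in Polg mutant cells (limma unadjusted p = 0.0223, adjusted p = 0.386). Epdr1, Ppt2 and Idua were higher on every Polg mutant array, by 0.45, 0.18 and 0.32, and Siae and Scpep1 were lower, with differences of -0.21 and -0.49. Of 26 further membrane and transport genes, 3 (11.5%) were higher and 5 (19.2%) lower on every Polg mutant array. Abcb9, a lysosomal peptide transporter, read 6.19, 6.37 and 6.88 on the Polg mutant arrays and 7.62 and 7.72 on the WT arrays, a difference of -1.19 ± 0.24 (SE, limma unadjusted p = 0.00955). Slc11a2, the iron transporter DMT1, had a difference of -0.49 and Hgsnat, of heparan sulfate degradation, one of 0.64. Of 14 further V-ATPase genes, 1 (7.14%), Atp6v0e, was higher on every Polg mutant array, by 0.25, and 0 (0%) were lower.

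Of 34 genes of delivery to and fusion with lysosomes, 8 (23.5%) were higher and 3 (8.82%) lower on every Polg mutant array. All genes tested gave 8.36% and 9.73%, and those above the level filter 16.7% and 20.3%. M6pr, the cation-dependent mannose 6-phosphate receptor that sorts hydrolases to lysosomes, read 9.82, 9.62 and 9.59 on the Polg mutant arrays and 9.25 and 9.05 on the WT arrays, a difference of 0.52 ± 0.11 (SE, limma unadjusted p = 0.00926). Ap3m1, of the AP-3 adaptor, was higher by 0.51 and Gga3, a sorting adaptor, had a difference of -0.21. The medians of the 4 further lists lay between -0.005 and 0.04.

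**Figure D5:**
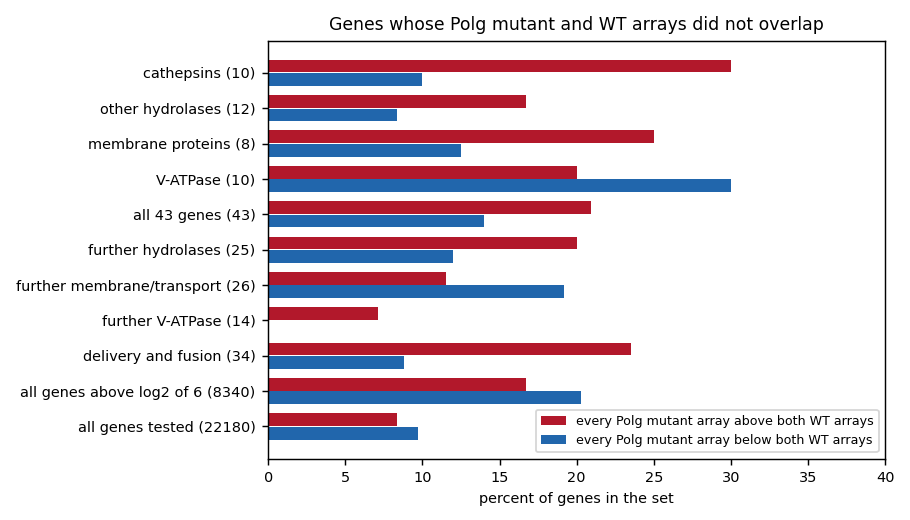
Percent of genes in each set for which all Polg mutant arrays read higher (red) or lower (blue) than both WT arrays, with the number of genes in parentheses. Over all genes above a log2 of 6 the shares were 16.7% and 20.3%, and over all genes tested 8.36% and 9.73%.

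The erythroid label of the samples was checked with 15 measured markers of 17 listed. Slc4a1, the band 3 anion exchanger, read 13.37 to 13.42 on the Polg mutant arrays and 13.46 to 13.58 on the WT arrays. The mean of the 15 markers was 11.49 to 11.58 on the Polg mutant arrays and 11.75 to 11.92 on the WT arrays. Of the 15, 14 (93.3%) read lower on all Polg mutant arrays than on either WT array. All genes tested gave 9.73% lower, and those above the level filter 20.3%. The part of this shift of the erythroid markers in the lower levels of Acp5, Ctsb, Clcn7 and the 3 lower V-ATPase genes was not tested. Means of 9 megakaryocyte and platelet markers were 5.87 to 6.09 on the Polg mutant arrays and 6.02 and 6.62 on the WT arrays. Of the 9, Ppbp read 8.41 on WT replicate 2, against 5.14 on WT replicate 1 and 5.74 to 6.04 on the Polg mutant arrays. Gp9 alone (11.1%) was lower on every Polg mutant array, against 9.73% of all genes tested. Means of 7 B cell markers were 4.79 to 5.34 on the Polg mutant arrays and 5.24 and 5.76 on the WT arrays. Those of 6 mast cell and basophil markers were 6.06 to 6.27 on the Polg mutant arrays and 6.05 and 6.28 on the WT arrays.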

How the data were processed

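Expression was measured on 1-colour Affymetrix-labelled arrays in 3 Polg mutant and 2 WT samples. The authors deposited 1 table of log2 values for 41345 probe sets. Per the submitters' processing notes the tools were RMA and Partek 6.5, without a stated step for either; annotation and build are not given in the sources used here. That the scale is log2 follows from the range of values. Scanner files were not used, which leaves signal over background unknown, and the number of arrays limits the precision.

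Probe sets with 1 gene symbol in the platform annotation (23521, against 1814 with several and 16010 with none) gave 22180 genes, the brightest probe set being kept. Groups were compared with limma 3.58.1 (R 4.3.3), with genotype as the single term and Benjamini-Hochberg adjustment over all genes. The method was also run on simulated data without ties, which cannot show how it behaves on tied values such as these. Ties between arrays (67.9% of genes, 19 of the 43 lysosomal genes) gave a prior SD of 0.0376 with 0.73 prior degrees of freedom. Members and lists were chosen with earlier results of these data known. All members could be named. Of further lists, up to 6 genes of smallest p could be named, and of markers up to 4 and some fixed ones. Ppbp was named for its value on 1 array.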

Additional observations from a re-analysis of the deposited data

How the results depend on the processing

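The alternatives were a level filter, 2 scalings, the mean over probe sets, variance moderation with trend, untied genes, a replicate block and leaving out each array. Over all genes, limma passed 6 higher and 5 lower with the level filter, 10 and 2 after quantile normalization, 73 and 41 among genes with 5 distinct values, and 0 to 713 and 0 to 1068 with 1 array left out, where a lone WT array is assumed to vary like the Polg mutant arrays. Lysosomal genes at an unadjusted p under 0.05 were 3 higher with trend, 3 lower among genes with 5 distinct values, and 0 to 7 higher and 4 to 7 lower with 1 array left out. Genes higher on every Polg mutant array were 9 to 20 and genes lower 6 to 12 with 1 array left out, an alternative chosen after seeing the data. Genes with 5 distinct values had medians of 0.326 (other hydrolases), 0.333 (membrane proteins) and 0.196 (V-ATPase), over fewer genes. With 1 array left out the medians ran from 0.062 to 0.342 for cathepsins, 0.015 to 0.129 for other hydrolases, 0.045 to 0.205 for membrane proteins and 0.069 to 0.135 for the V-ATPase. With the replicate block, 11 lysosomal genes were higher and 2 lower at an unadjusted p under 0.05. Acp5 then had a limma unadjusted p of 0.0513 and Ctsb one of 0.0558. The groups share only replicate numbers 1 and 2, whose samples' deviations correlated at 0.188 and -0.201. With 2 WT arrays the deviations of one mirror those of the other, so these correlations cannot decide whether the numbers pair the samples. The main fit has no replicate block.

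Signs turned for Naglu (-0.022) and Scarb2 (-0.027) after quantile normalization and for Naglu (-0.001) after median centring. With 1 array left out, the differences ran from -0.013 to 0.261 for Ctsa, -0.022 to 0.157 for Gla, -0.008 to 0.014 for Naglu, -0.055 to 0.252 for Neu1, -0.099 to 0.87 for Cd63, -0.04 to 0.089 for Scarb2, -0.016 to 0.127 for Atp6v0d1, -0.017 to 0.011 for Atp6v1c1 and -0.094 to 0.166 for Mitf. The cause was not tested. Acp5, Ctsb and Atp6ap1 kept their sign in every alternative run that included them, and Atp6ap1, whose values are tied, was not in the fit to genes with 5 distinct values.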
